A study of Mus musculus with 8 samples.

Results

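Replication-dependent histone genes were examined after Pvt1 silencing in C2C12, a mouse myoblast line. The members were the genes whose name in the array design began with Hist1h, Hist2h, Hist3h or Hist4h, which gave 56 of 37074 gene names, read by 68 probes. By histone type they comprised 6 H1, 18 H2a, 14 H2b, 9 H3 and 9 H4 genes. By cluster they comprised 42 genes of Hist1 on chromosome 13, 10 of Hist2 on chromosome 3, 3 of Hist3 on chromosome 11 and 1 of Hist4 on chromosome 6. RNA of 8 proliferating cultures at passage 10 was hybridised to one-colour Agilent arrays. In 4 cultures (silenced) Pvt1, a long non-coding RNA, was targeted with the LNA GapmeRs Pvt1_1 and Pvt1_3, antisense oligonucleotides that lead to cleavage of the RNA they pair with. The other 4 cultures (control) received negative control GapmeRs, and both groups received Lipofectamine 2000. Per the study's methods, cells were lysed directly after the transfection medium was taken off. The labels call the cultures biological replicates and say no more on how separate they were, so p-values measure only the spread between these 8 samples.

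Core histones H2A, H2B, H3 and H4 form the protein spool of the nucleosome, and H1 binds the linker DNA between nucleosomes. The replication-dependent genes are intronless and clustered, and dividing cells transcribe them mostly in S phase, when new DNA has to be packaged. Most of their mRNAs do not end in a poly(A) tail but in a short stem-loop bound by Slbp, and cleavage just after it requires the U7 small nuclear ribonucleoprotein. Some members can also end further downstream at a polyadenylation signal. The labelling kit used here starts cDNA synthesis from poly(A) tails.

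The stem-loop is shown because it is what sets these transcripts apart from other mRNAs, and because 5 of the 68 probes covered it whole. Of the 56605 probes on the array 6 did so, searching for 16 bases that read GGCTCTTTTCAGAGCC with a C allowed for the fourth base and a G for the thirteenth. Below, the 30 bases around it are given from the probe sequences in the deposited files, 5′ to 3′, with the stem-loop in capitals and mm9 coordinates.
Hist2h2bb, chr3:96074086-96074115 (+): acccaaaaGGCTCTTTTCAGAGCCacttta
Hist1h2bf, chr13:23665629-23665658 (-): taacccaaaGGCTCTTTTCAGAGCCaccta
Hist1h3i, chr13:21874784-21874813 (-): ataacaaaaGGCTCTTTTCAGAGCCccctc
Hist1h3a, chr13:23853756-23853785 (-): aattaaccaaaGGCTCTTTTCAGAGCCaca
Hist1h4m, chr13:21903990-21904019 (+): caactaaaGGCCCTTTTCAGGGCCatccaa
The stem-loop of Hist1h4m carried the C and the G, and the other 4 were identical to each other over the 16 bases.

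A member was tested where its probe had a value on at least 3 of 4 arrays of each group, which held for 57 probes of 48 genes. Values are log2 intensities normalised between arrays, so a difference of 1 is a 2-fold change. After Pvt1 silencing 16 histone probes of 16 genes were higher, none was lower and 41 were not called (limma, adjusted p under 0.05 over all 28649 probes tested). The called share was 28.1% of the tested histone probes, beside 4.79% of all tested probes called higher and 18.4% called lower. At an unadjusted p under 0.05, limma gave 27 higher and 0 lower histone probes, beside 9.34% and 27.0% of all probes, and the methods' t-test 22 and 0, beside 7.79% and 23.7%. In bulk RNA, fewer cells carrying a transcript and less of it per cell cannot be told apart. The median histone change was 0.65, with 50 of 57 changes above 0, whereas the median of all tested probes was -0.19. With cyclic loess, another normalization, 30 histone probes were called higher where 18.9% of all probes were, and the 2 medians were 0.83 and 0.02. On 22 of the 57 histone probes every silenced array lay above every control array, beside 5.61% of all probes, and on no histone probe did the silenced arrays all lie below.

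**Figure D1:**
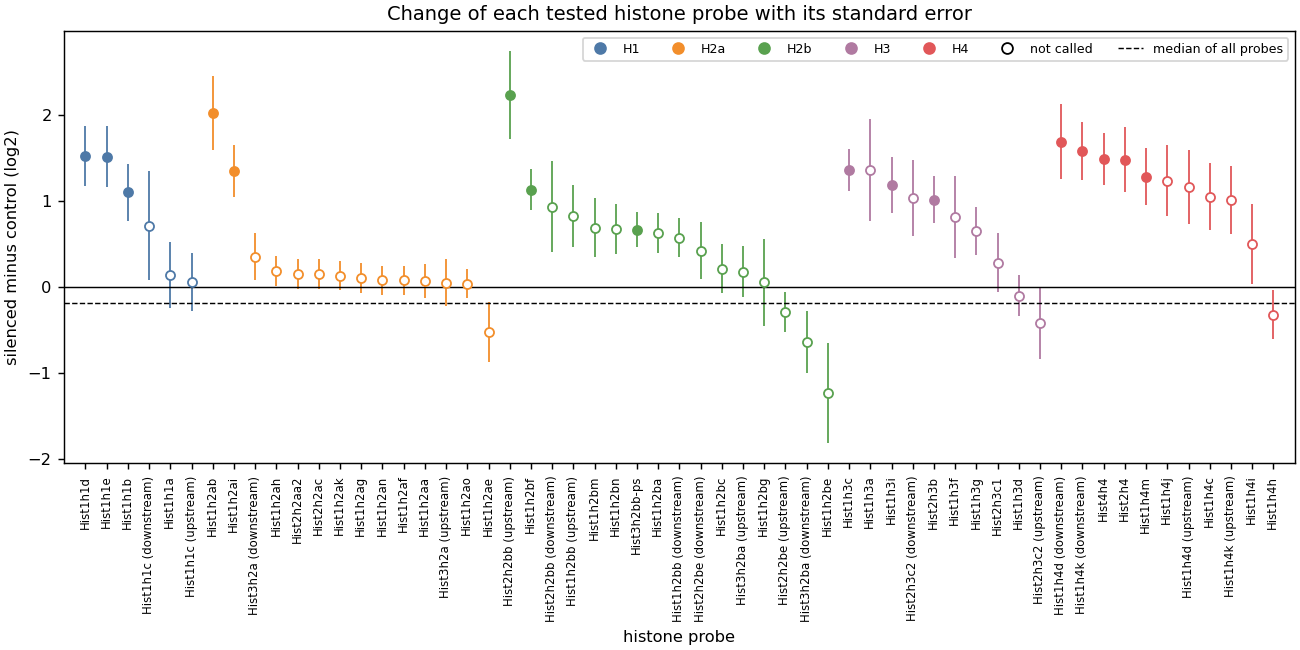
Change of the 57 tested histone probes, silenced minus control on the log2 scale, with the standard error as bars, ordered by size within each histone type. Filled points were called higher, open points were not called, and the dashed line is the median of all probes (-0.19). Some probes of every type reach above 1, the highest being Hist2h2bb (H2b, 2.23) and Hist1h2ab (H2a, 2.02), while most H2a probes sit just above 0.

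The groups were checked on Pvt1 first. Its brighter probe read 9.65, 9.79, 10.31 and 9.71 on the control arrays and 7.09, 6.69, 7.85 and 6.39 on the silenced arrays, a change of -2.86 (SE 0.32, limma adjusted p 0.000682). On a further Pvt1 probe no silenced array rose well above background, and the fall was at least 5.41-fold. The share of spots well above background was between 42.9% and 45.5% on control arrays and between 36.8% and 43.2% on silenced arrays, lowest on silenced replicate 4. Control replicate 3 correlated with the rest of its group at 0.962, the remaining arrays with theirs at 0.979 to 0.985. Of the myoblast markers, Myod1 and Des were well above background on all 8 arrays. Both were called lower after silencing, with changes of -1.77 and -1.17 (limma adjusted p 0.00381 and 0.0144, values without masking of dim spots). The other Des probe, at -0.16, was not called. All arrays lay on 1 slide, with 3 control arrays and 1 silenced array in its upper row and 1 and 3 in its lower row.

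Several measures moved with the groups, and their part in the histone result was not tested. Over 1220 genes with a pair of probes 300 to 1000 bases apart, the 5′ probe differed from the 3′ probe by a median of -0.85 ± 0.13 in controls and -1.62 ± 0.19 after silencing (SD, n = 4 each, exact two-sided permutation p 0.0286, the smallest that 4 against 4 arrays allow). Probes with a polyadenylation signal had a median change of 0.17 over 4265 probes. Of 20 genes abundant in liver, 14 were called higher on values without masking of dim spots, where 8.82% of all probes were, and their mean log2 level was between 4.67 and 4.80 on control arrays and between 7.01 and 7.49 on silenced arrays. Alb, which defines the list, stood well above background on all 4 silenced arrays and on none of the controls, while Apoa1, Apoh, Fga and Cps1 were at background on all 8. The mean over 5 macrophage genes was between 6.99 and 7.29 in controls and between 7.39 and 8.02 in silenced cells, with 1 called higher, 1 lower (Csf1r, whose other probe was called higher by 1.01), and Adgre1 and Lyz2 at background everywhere. The 8 myoblast markers averaged between 12.18 and 12.27 in controls and between 11.55 and 12.04 in silenced cells, with 4 called lower, where 8.46% of all probes were, and 1, Myf5, called higher although at background on all 8 arrays.

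Histone values depended on which arrays entered. Control replicate 3 was the lowest control array for 31 of 54 histone probes complete in that group (57.4%, beside 28.9% of all probes) and for 11 of the 16 called ones. Silenced replicate 4 was the lowest silenced array for 44 of 54 (81.5%), beside 87.1% of all probes. Without control replicate 3, 14 of the 16 calls remained, where 5.88% of all probes were called higher. Without silenced replicate 4 all 16 remained and 26 were called, where the share of all probes rose to 12.04%, and without both arrays 31 were called, the 16 included, where it was 17.8%. Leaving out silenced replicate 1 or silenced replicate 3 left 9 called, where it was 2.35% and 2.52%. Within the upper slide row the tested histone probes had a median difference of 0.94 and within the lower row 0.27, while the medians of all probes there were -0.03 and -0.32. The 16 called probes, chosen on these same arrays, had medians of 1.73 and 1.02. With the row as a block 6 probes remained called (Hist1h2ab, Hist1h2bf, Hist1h3c, Hist1h4k, Hist1h4m and Hist4h4), 10.5% of the histone probes beside 1.86% of all probes.

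**Figure D2:**
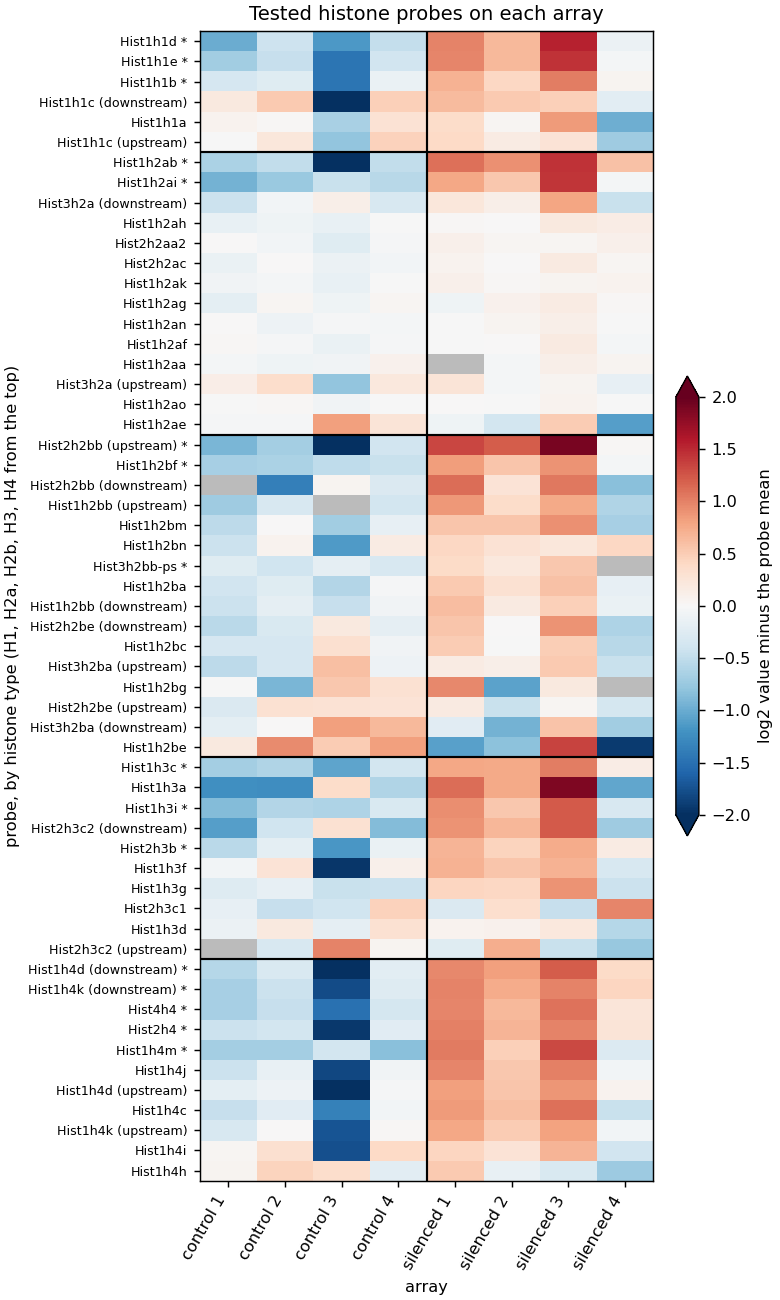
Each row is a tested histone probe and each column an array, coloured by the log2 value minus the mean of that probe over the 8 arrays (red above, blue below, grey no value). Stars mark the 16 probes called higher, and upstream and downstream name the 2 probes of a gene by their order along the transcribed strand. The rows of H4 and H1 are deepest blue on control replicate 3, and silenced replicate 4 is paler than the other silenced arrays.

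Linker histones were called higher in 3 of 5 genes with a tested probe. For Hist1h1d, the H1.3 gene (chromosome 13, 23647452 on mm9, current symbol H1f3), the control arrays read 6.92, 7.50, 6.76 and 7.43 and the silenced arrays 8.90, 8.56, 9.45 and 7.79. The groups did not overlap, and the change was 1.52 (SE 0.35, limma adjusted p 0.0132), a 2.87-fold increase with a 95% interval from 1.67 to 4.94. Hist1h1e, the H1.4 gene, read 9.69, 9.92, 8.92 and 10.0 in controls and 11.36, 11.04, 11.83 and 10.34 in silenced cells. Its change was 1.51 (SE 0.35, limma adjusted p 0.0143). Hist1h1b, the H1.5 gene and the brightest H1 probe, rose by 1.10 (SE 0.33, limma adjusted p 0.041), but the call was lost in 7 of the 8 fits that left out 1 array and held only without silenced replicate 4. Control replicate 3 read 10.77 where the other controls read 11.89 to 12.09, and without it the change was 0.79 (adjusted p 0.0523). Both probes of Hist1h1c, the H1.2 gene, overlapped between groups, at changes of 0.06 and 0.71. Without control replicate 3, which read 7.13 on the second of them, they were -0.20 and -0.04. Hist1h1a, the H1.1 gene, changed by 0.14, and Hist1h1t, the testis-specific H1, was at background on all arrays.

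H4 had the highest median change, 1.23 over 11 probes, and 5 of its 9 genes were called higher. The probe at that median, Hist1h4j, changed by 0.82 without control replicate 3. The brightest, Hist1h4d (chromosome 13, 23673749 on mm9), read 13.09, 13.35, 11.37 and 13.44 in controls and 14.62, 14.47, 14.87 and 14.03 in silenced cells, a change of 1.69 (SE 0.44, limma adjusted p 0.0222). Every silenced array lay above every control array, and the call was lost in 2 of the 8 leave-one-out fits, those without silenced replicate 1 or silenced replicate 3. Hist1h4k, whose probe lists several near-identical H4 transcripts, read 12.11, 12.35, 10.99 and 12.52 in controls and 13.78, 13.52, 13.77 and 13.21 in silenced cells (change 1.58, SE 0.33, limma adjusted p 0.00921). Hist4h4, the lone member of the Hist4 cluster, read 9.73, 9.93, 8.90 and 10.04 against 11.37, 11.04, 11.48 and 10.63 (change 1.48, SE 0.30, limma adjusted p 0.00787), and its call held in each leave-one-out fit. Hist2h4 rose by 1.48 and Hist1h4m by 1.28, with calls lost in 2 and 5 of the 8 such fits. Hist1h4j, Hist1h4c and a further probe each of Hist1h4d and Hist1h4k changed by 1.01 to 1.23 without passing the test (limma adjusted p 0.0555 to 0.0975). These 4 lie within 7 mismatches of another H4 probe, so their signals may be shared between paralogs. Without control replicate 3 their changes fell to between 0.59 and 0.82. Hist1h4i changed by 0.50, from 8.08 ± 1.01 to 8.58 ± 0.45 (SD, n = 4 each), and by 0.00 without control replicate 3. Hist1h4h was at background on all arrays.

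All H3 proteins of these clusters wrap DNA as part of the H3-H4 tetramer, and 3 of 9 genes were called. Hist1h3c had the smallest adjusted p of all histone probes. It read 10.41, 10.48, 10.03 and 10.72 in controls and 11.86, 11.85, 12.12 and 11.24 in silenced cells, a change of 1.36 (SE 0.25, limma adjusted p 0.0049). Its groups did not overlap, and its call held under the slide row (1.28, adjusted p 0.0333) and in each leave-one-out fit. Hist1h3i rose by 1.18 (SE 0.33, limma adjusted p 0.0273). It is the called probe whose groups overlapped, since silenced replicate 4 at 6.89 was below control replicate 4 at 6.92, and its call was lost in 6 of the 8 leave-one-out fits. Hist2h3b, read by a probe that lists 3 H3 transcripts, rose by 1.01 (SE 0.27, limma adjusted p 0.0244), lost in 3 of 8. Hist1h3a, whose stem-loop is shown above, changed by 1.35 with a wide error (SE 0.59, limma adjusted p 0.13). Hist1h3d, the brightest H3 probe, read 14.39, 14.71, 14.32 and 14.81 in controls and 14.57, 14.60, 14.72 and 13.94 in silenced cells, with a change of -0.10 (limma adjusted p 0.794) that was 0.08 with cyclic loess.

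H2b spread most widely, from -1.24 to 2.23 over 16 probes. Hist2h2bb had the largest rise of all members at its stem-loop probe, which read 7.94, 8.17, 6.36 and 8.47 in controls and 10.19, 10.06, 10.75 and 8.88 in silenced cells. That is a rise of 2.23 (SE 0.51, limma adjusted p 0.0128), or 4.70-fold with a 95% interval from 2.13 to 10.3. Hist1h2bf read 8.63, 8.67, 8.79 and 8.85 in controls, the tightest control values among the called probes that were well above background, and 10.14, 9.85, 10.19 and 9.27 in silenced cells (change 1.13, SE 0.24, limma adjusted p 0.00932). The third call, the pseudogene Hist3h2bb-ps, rested on 7 arrays at background, with values of 4.77 to 4.98 in controls and 5.37 to 5.71 in silenced cells, and no fold is given. Hist1h2bb, the brightest H2b probe, changed by 0.57 (limma adjusted p 0.094), and Hist1h2ba, the testis-specific H2b, by 0.62 (limma adjusted p 0.0836). These 2 probes lie within 5 mismatches of each other, and that of Hist1h2bb lists 4 transcripts. Their signals may be shared between paralogs, so neither value can be assigned to 1 gene. Hist1h2bn did not overlap between groups (9.77 to 11.07 against 11.14 to 11.33) but had an adjusted p of 0.122 in limma. Hist1h2be had the lowest change of all members, -1.24, with silenced values from 4.23 to 7.50 that enclosed the control values of 6.35 to 7.10 (limma adjusted p 0.159). Silenced replicate 3 held the 7.50 and was the one silenced array well above background, so the size of the change is set by values near background. Without it Hist1h2be was the one histone probe called lower in any setting tried (adjusted p 0.00753), at least 1.52-fold lower.

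**Figure D3:**
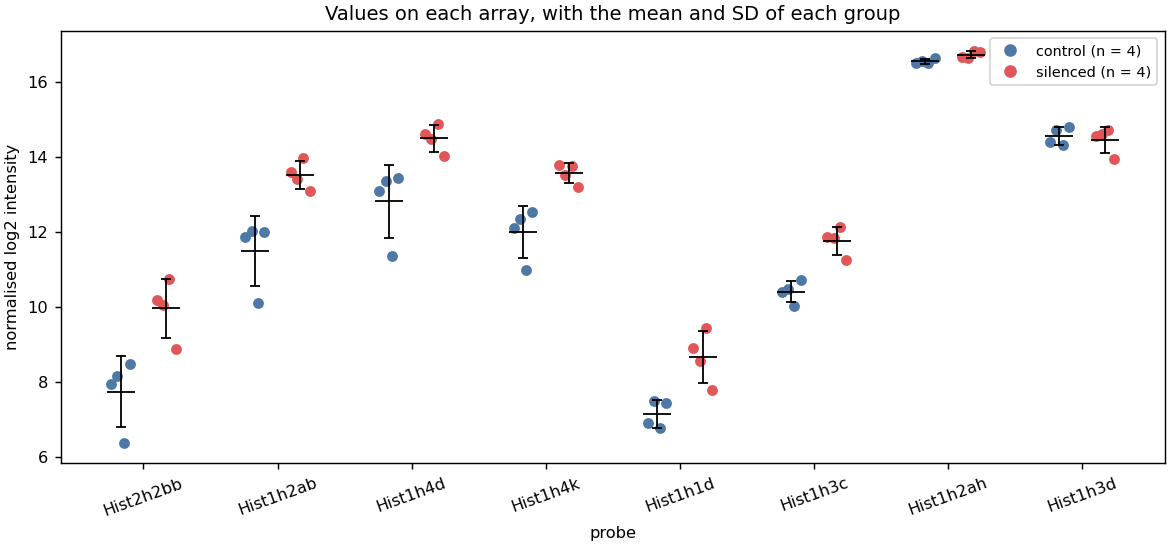
Normalised log2 intensity of 8 histone probes on each array (control blue, silenced red), with the mean and SD of each group of 4 in black. For genes with 2 probes the one with the larger change is drawn. The first 6 probes show no overlap between groups and a low control replicate 3 in Hist2h2bb, Hist1h2ab, Hist1h4d and Hist1h4k, while the silenced and control arrays of Hist1h2ah differ by 0.18 and those of Hist1h3d overlap.

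Of 14 tested H2a probes 2 were called. Hist1h2ab read 11.87, 12.02, 10.10 and 12.01 in controls and 13.61, 13.42, 13.96 and 13.09 in silenced cells, a change of 2.02 (SE 0.43, limma adjusted p 0.00928) that was 1.55 without control replicate 3. Hist1h2ai read 8.42, 8.62, 8.92 and 8.81 against 10.14, 9.90, 10.80 and 9.32 (change 1.35, SE 0.30, limma adjusted p 0.0122). The 2 probes of Hist3h2a changed by 0.05 and 0.35 without a call, and Hist1h2ae by -0.52. The other 9 H2a probes, those with processed signals above 32768, changed by 0.04 to 0.18, and none was called. Their values on all arrays lay between 15.67 and 16.83, and each averaged at or above the level of 98.7% of the tested probes. None of their spots was flagged as saturated, the brightest reading 117410 against a scanner limit of 778203. The 95% intervals of these changes reached from -0.37 to 0.57, the upper end being a 1.48-fold rise. For Hist1h2ah, the brightest, controls read 16.50, 16.56, 16.50 and 16.64 and silenced arrays 16.66, 16.65, 16.83 and 16.79, without overlap (exact two-sided permutation p 0.0286, the smallest possible, n = 4 each) but with an adjusted p of 0.494 in limma. These probes kept changes of -0.04 to 0.14 with cyclic loess, but when arrays were only shifted to a common 75th percentile all 9 were called higher, by 0.44 to 0.59, where 24.7% of all probes were and their median was 0.16.

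The bright H2a probes read near-identical sequence. Each lay within 2 to 8 mismatches of the probe of another member, so a value cannot be assigned to 1 gene. Hist1h2ah and 4 of the others are shown, as deposited on build mm9 and 5′ to 3′, to let this likeness be seen. Hist1h2af, Hist1h2ag, Hist1h2an and Hist1h2ao are left out. Capitals mark the longest run that each shares with the Hist1h2ah probe.
Hist1h2ah, chr13:22127035-22127094 (-): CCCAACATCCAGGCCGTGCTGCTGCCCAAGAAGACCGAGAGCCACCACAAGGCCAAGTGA
Hist1h2ak, chr13:21845304-21845363 (-): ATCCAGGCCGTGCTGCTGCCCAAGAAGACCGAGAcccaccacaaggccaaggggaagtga
Hist2h2aa2, chr3:96043781-96043840 (-): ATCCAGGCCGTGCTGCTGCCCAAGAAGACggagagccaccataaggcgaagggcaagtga
Hist2h2ac, chr3:96024378-96024437 (-): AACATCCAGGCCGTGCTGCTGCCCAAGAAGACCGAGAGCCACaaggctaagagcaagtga
Hist1h2aa, chr13:24026659-24026718 (+): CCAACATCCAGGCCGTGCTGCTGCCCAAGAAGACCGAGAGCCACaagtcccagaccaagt
The shared runs were 34, 29, 42 and 44 bases long in the last 4, and they joined the Hist1 and Hist2 clusters on different chromosomes. Hist1h2ab and Hist1h2ai, which were called, were read by probes with at least 17 mismatches to any other member, counted without gaps. The deposited place of the Hist1h2ai probe (chr13:21902706-21902779) overlaps that of the bright Hist1h2ao probe (chr13:21902695-21902754), and whether they share signal was not tested. Over all 57 tested probes, however, 5 of the 19 for which the array design lists 2 or more RefSeq transcripts were called (26.3%), beside 11 of the other 38 (28.9%).

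The place of a probe along the transcript was compared by its sequence. Of the 5 probes that cover the whole stem-loop, 4 were called, and their changes ran from 1.13 to 2.23 with a median of 1.28. Another 4 end inside it (at least 7 of its bases), namely Hist1h2ab and Hist1h2ai, which were called, and Hist1h1c and Hist3h2ba, at 0.06 and 0.18. Past the stem-loop, or holding a polyadenylation signal (AATAAA or ATTAAA), were 5 probes that are not among the bright H2a ones. None of these was called, with changes from -1.24 to 0.93 and a median of -0.52. None of the 5 was well above background on all 8 arrays, as 4 of the 5 whole stem-loop probes were, so place and signal level cannot be told apart here. With cyclic loess the probes of Hist2h2be and Hist2h2bb among them were called higher, at 0.76 and 1.27, and the median was -0.23. The one bright H2a probe that also holds those letters, Hist1h2ag, changed by 0.10. The remaining 34 probes had a median of 0.70, with 10 called. These counts are small and describe these probes.

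**Figure D4:**
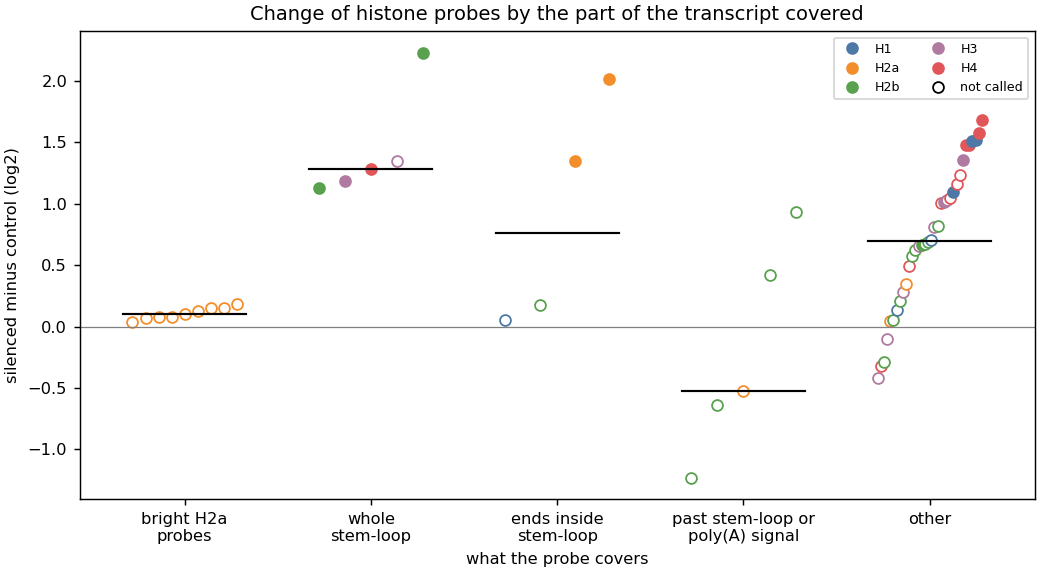
Change of the tested histone probes (silenced minus control, log2) by what the probe covers, coloured by histone type. Filled points were called higher, open points were not, and black lines are medians (0.10, 1.28, 0.76, -0.52 and 0.70 from left to right). The 5 whole stem-loop probes all lie above 1, and the bright H2a probes lie in a narrow band near 0.

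Sequence from the probes past the stem-loop shows what they read instead. Capitals mark the end of the stem-loop for Hist1h2ae and the polyadenylation signal for Hist1h2be and Hist2h2be.
Hist1h2ae, chr13:23662519-23662548 (-): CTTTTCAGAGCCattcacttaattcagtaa
Hist1h2be, chr13:23675611-23675640 (-): gtactgttcattATTAAAgcattcctgatt
Hist2h2be, chr3:96027578-96027607 (+): gatcgAATAAAtccattcactgcatgtgca
Hist1h2ae changed by -0.52 (6.04, 6.04, 6.87 and 6.31 in controls, 5.97, 5.68, 6.57 and 4.95 in silenced cells) and Hist2h2be by 0.42, both with overlap. The other Hist2h2be probe, 197 bases upstream, changed by -0.29. Within genes, 9 members had 2 tested probes, and the difference of their changes was tested over the arrays for the 6 pairs with complete values. In Hist3h2ba the probe ending in the stem-loop changed by 0.18 and the one 160 bases downstream, with a polyadenylation signal, by -0.64 (exact two-sided permutation p 0.0286, 0.0571 after Benjamini-Hochberg adjustment over 6 pairs). Both probes were dim, the first well above background on 1 control and 3 silenced arrays and the second on 2 and 1, so this difference rests mostly on spots near background. In Hist1h4d and Hist1h4k the downstream probe had the larger change, by 0.53 and 0.57, with the same p. In Hist2h2bb the stem-loop probe changed by 2.23 and a probe 8698 bases downstream on mm9, well above background on 2 arrays, both silenced, by 0.93, a pair with a missing value that was not tested. In Hist2h3c2, also not tested, the downstream probe changed by 1.03 and the upstream one by -0.42. Both were dim, the first well above background on 2 arrays and the second on none. Over the 9 pairs the upstream probe had the larger change in 3. In Hist2h2be the downstream probe, with the polyadenylation signal, had the larger change by 0.71 (exact two-sided permutation p 0.0857), opposite in direction to Hist3h2ba. None of the 6 pairs passed after adjustment.

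Promoters were examined for motifs that called and uncalled members share. RefSeq promoters (GRCm38.p6) were matched for 49 of the 56 genes, and the 250 bases before the start were searched on both strands. CCAAT, the box bound by NF-Y, was in 41 of the 49 (83.7%), beside 34.5% of all 27025 promoters, and in every H1, H2a and H2b promoter but in 2 of 8 for H4. TATAAA was in 49.0%, beside 13.0% of all. The octamer ATTTGCAT, known as the Pou2f1 motif of H2b promoters, was in 24.5%, beside 1.61% of all, and these were 7 of 17 H2a and 5 of 11 H2b promoters. Among genes called higher 11 of 14 held CCAAT and 9 held TATAAA, and among tested genes not called 23 and 12 of 28 did. The octamer was in 2 of the 14 and 9 of the 28. A match describes these letters and is no measured site. The 120 bases before the start are shown for the members with the largest changes, with these motifs in capitals.
Hist2h2bb (H2bc18), chr3:96269580-96269699 (+): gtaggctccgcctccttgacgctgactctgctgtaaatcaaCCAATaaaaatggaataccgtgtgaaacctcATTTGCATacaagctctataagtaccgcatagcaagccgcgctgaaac
Hist1h2ab (H2ac4), chr13:23750968-23751087 (+): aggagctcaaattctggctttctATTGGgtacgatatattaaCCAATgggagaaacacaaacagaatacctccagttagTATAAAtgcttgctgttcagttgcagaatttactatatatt
The Hist2h2bb stretch held CCAAT and the octamer, and the Hist1h2ab stretch held CCAAT in both orientations (ATTGG is its reverse complement) and TATAAA.

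Genes that supply, process and handle histones were then followed by the brightest tested probe of each gene, in 4 lists. Most histone variants are also made outside S phase, from polyadenylated mRNAs, though H2afx yields a stem-loop mRNA as well and Cenpa is expressed mainly late in the cell cycle. Of 11 variants none was called higher and 3 lower (27.3%, beside 18.4% of all probes called lower). The centromeric H3 variant Cenpa fell by 1.06 (SE 0.23, limma adjusted p 0.00969), from 13.58 ± 0.27 to 12.52 ± 0.29 (SD, n = 4 each). H2afy, which encodes macroH2A1, fell by 0.88 and its other 4 tested probes were lower too. H2afx, the variant phosphorylated at DNA breaks, fell by 0.71 (limma adjusted p 0.0478), a call lost in 6 of the 8 leave-one-out fits. H2afz read 15.96 ± 0.07 in controls and 15.90 ± 0.09 in silenced cells (SD, n = 4 each), and H3f3a and H3f3b changed by 0.10 and -0.20 without a call. H1fx, a linker variant picked out after its values were seen, changed by 0.53 on its brightest probe without a call, while its other probe fell by 3.19 and was called. H1f0, the linker histone of resting cells, changed by -0.67 (limma adjusted p 0.434), and by -1.29 (adjusted p 0.0136) without control replicate 3, which read 5.93.

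Of 20 genes for histone transcription and 3′ end formation, 6 were called lower (30%, beside 18.4% of all probes) and 1 higher. Of those not called, 1 (Pou2f1) had other probes called lower, at -1.44 and -2.50. Slbp, the stem-loop binding protein, read 11.64, 11.89, 11.10 and 12.09 in controls and 10.67, 10.71, 10.41 and 10.23 in silenced cells. Its groups did not overlap, and it fell by 1.18 (SE 0.25, limma adjusted p 0.00978), while 2 of its other 3 tested probes were lower and 1, at -0.43, was not called. Ars2 (Srrt on the array), which links the cap-binding complex to 3′ end formation, fell by 2.07 (SE 0.26, limma adjusted p 0.00106). Upf1, which takes part in histone mRNA decay, fell by 1.61. Mier2, a listed gene whose part in histone gene expression is not established, fell by 1.88, and without it 5 of 19 (26.3%) were lower. Zfp473, a U7-associated zinc finger protein, stood well above background on 3 of 4 silenced arrays and on none of the controls, at least 2.01-fold higher (limma adjusted p 0.0406), a call lost in 6 of the 8 leave-one-out fits. Npat, the coactivator of histone transcription, read 8.41, 8.61, 7.59 and 8.58 against 8.73, 8.66, 9.05 and 7.99, a change of 0.31 (limma adjusted p 0.509). Casp8ap2 changed by -0.09 after quantile normalization and by 0.21 with cyclic loess, not called in either.

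Among 22 histone chaperones and importers 3 (13.6%) were called lower and none higher, a share below the 18.4% of all probes called lower, and 6 of those not called had another probe called lower. Cabin1, a subunit of the HIRA complex, fell by 1.70 (SE 0.20, limma adjusted p 0.00084) and Atrx by 0.75 (SE 0.20, limma adjusted p 0.0253), a call lost in 4 of the 8 fits that left out 1 array. Chaf1a, the large subunit of the replication-coupled chaperone CAF-1, fell by 2.13 (SE 0.64, limma adjusted p 0.0385), but the call was lost in 6 of the 8 leave-one-out fits. Silenced replicate 4 read 8.75 where the others read 11.69 to 12.13, and without it the fall was 1.35 and still called (adjusted p 0.00327). Of 22 S phase genes 5 (22.7%) were called lower and none higher, a share near that of all probes, and 5 of those not called had another probe called lower. Tk1, thymidine kinase, fell by 1.31 (SE 0.25, limma adjusted p 0.00547), the helicase factor Cdc45 by 1.01 (its call lost in 2 of 8 such fits) and the helicase subunit Mcm5 by 0.97. Pcna, the sliding clamp, changed by -0.46 (limma adjusted p 0.104). The medians of the 4 lists were -0.06, -0.59, -0.44 and -0.35 in the order given, beside -0.19 for all probes and 0.65 for the histone members, and with cyclic loess -0.09, -0.37, -0.26 and -0.15. When arrays were only shifted to a common 75th percentile, which moved the median of all probes to 0.16, 16 genes of the 4 lists were called higher and 9 lower, in place of 1 and 17, beside 24.7% and 15.2% of all probes.

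**Figure D5:**
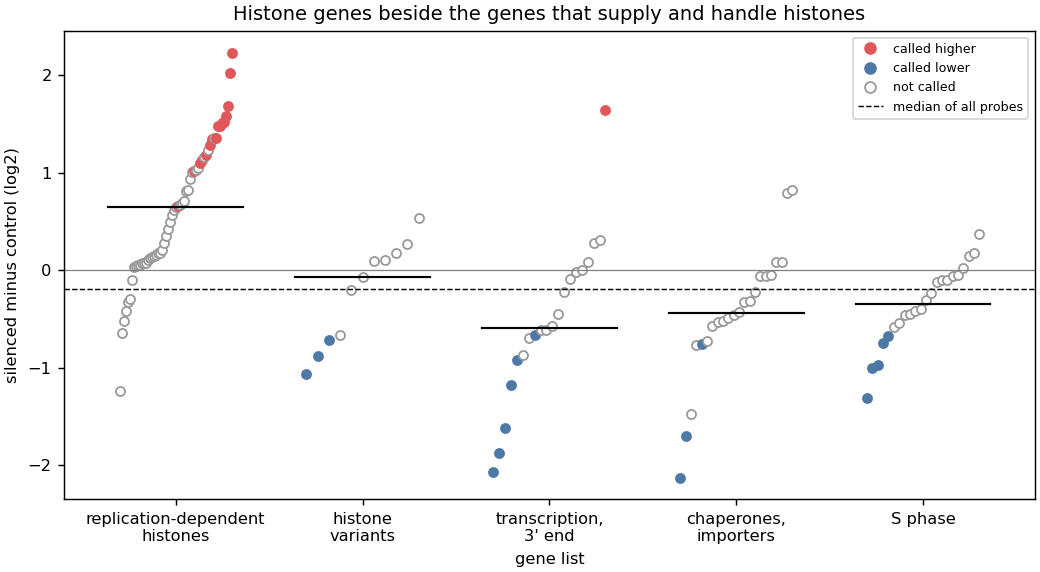
Change (silenced minus control, log2) of the 57 tested replication-dependent histone probes and of the genes of 4 lists, each gene by its brightest probe. Red points were called higher, blue points lower, open points were not called, black lines are medians and the dashed line is the median of all probes. Red points fill the upper part of the histone column, while the other columns hold 1 red point in all, Zfp473.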

How the data were processed

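RNA of 4 control and 4 Pvt1-silenced C2C12 cultures was labelled with Cy3 and hybridised to Agilent mouse arrays. The authors deposited scanner files of spot intensity on a linear scale, with flags of another unit (0 or 1). Per the file headers these were written by Feature Extraction 12.0.0.7, while the submitters' processing notes name 10.7.3.1. A deposited series table of intensity values, scaled to 1 median on all arrays, served as an alternative. No column of another sample was used.

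The log2 values were computed here from the intensity values the authors deposited: control spots, outliers and spots not positive and significant were left out, arrays were quantile normalised and spots of a probe averaged. Probes with 3 of 4 values per group were fitted with limma 3.58.1 (R 4.3.3), with Benjamini-Hochberg adjustment at 0.05. A histone type's probes were named by up to 4 largest called changes per direction, its brightest probe, and genes whose probes differed in call, and list genes by up to 3 per direction and 8 that were always named. Other members are given in the text after their values were seen. Members and lists were chosen with earlier results of these data known. On simulated data (28649 probes, 200 changed) the fit recovered 57% of changes of 2 log2 and 8% of changes of 1 log2. In the data 1373 probes were called higher and 5269 lower, so the adjusted threshold was stricter in the simulation. These shares therefore do not carry over to the reported fit. RefSeq symbols were found for 52 of 68 probes. Gene and promoter names come from RefSeq, and exon or UTR annotation was not analysed here. The number of arrays limits the precision. Alternatives were other normalizations, background corrections, filters, blocks, tests and probe choices, and leaving out each array.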

Additional observations from a re-analysis of the deposited data

Results flagged for a closer look

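In 8 of 83 groups of 4 arrays examined for the named genes, 1 array stood far from the other 3, where chance gives about 1 in 20. In 7 of these it was control replicate 3. It read 10.77 for Hist1h1b (other controls 11.89 to 12.09), 10.10 for Hist1h2ab (11.87 to 12.02), 10.59 for Hist2h4 (12.09 to 12.29), and 11.37 and 9.73 for the downstream and upstream probes of Hist1h4d (13.09 to 13.44 and 11.54 to 11.71). Away from the histone clusters it read 8.09 for Casp8ap2 (9.74 to 10.02) and 13.66 for H3f3a (14.88 to 15.09). The array was low for these and not for all probes, since its median deviation over all tested probes was 0.18. Silenced replicate 4 read 8.75 for Chaf1a (11.69 to 12.13), and its median deviation over all probes was -0.65. Without control replicate 3 the calls of Hist1h2ab, Hist2h4 and the downstream Hist1h4d probe held, at 1.55, 1.08 and 1.22, and that of Hist1h1b was lost at 0.79.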

How the results depend on the processing

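Over the settings tried, the median histone change stayed between 0.50 and 0.93 and exceeded the median of all probes by 0.557 to 0.881, while the number of calls moved widely. The counts below are histone probes called higher, 16 as reported (3 H1, 2 H2a, 3 H2b, 3 H3 and 5 H4), then listed genes called higher and lower, 1 and 17 as reported. The share of all probes called higher, 4.79% as reported, moved too and follows each count. A shift to the 75th percentile gave 42 (13 H2a, 10 H2b, 7 H3, 9 H4, all probes 24.7%), 16 and 9. Cyclic loess gave 30 (9 H2b, 6 H3, 9 H4, all probes 18.9%) and 6 higher listed genes. Normexp with an offset of 50 gave 28 (7 H2b, 6 H3, 9 H4, all probes 9.18%), 8 higher listed genes and a histone median 0.557 above that of all probes. The authors' series table, which gave no value for the brighter Pvt1 probe, gave 28 (5 H2a, 8 H2b, 5 H3, all probes 9.86%) and 8, and no masking of dim spots 25 (8 H2b, 5 H3, all probes 8.82%) and 7. Spots well above background only gave 15 (5.66%), with 2 and 28 listed genes, complete probes only 15 (5.2%) with 2 higher listed genes, and the robust trended prior 17 (6.47%) with 3. The slide row as a block gave 6 (0 H1, 1 H2a, 1 H2b, 1 H3, 3 H4, all probes 1.86%) and 7 lower listed genes. A t-test with unequal variance gave 2 after Benjamini-Hochberg adjustment (0 H1, 0 H2a, 0 H2b, 1 H3, 1 H4, all probes 1.98%) with 0 higher listed genes. Without adjustment it gave 22 (5 H2a, 5 H2b, all probes 7.79%), with 3 and 29 listed genes. The study's methods name a t-test for fast against slow fibres, with permutation p-values and a Bonferroni correction, which was not run here. Leaving Mier2 out of the listed genes, also chosen after the data were seen, gave 1 and 16. Keeping 1 probe per gene or leaving out probes within 3 mismatches of another member left 16. Chosen after the data were seen, probes with at most 1 RefSeq transcript listed gave 11 (2 H4), probes well above background on all 8 arrays 15, and leaving out control replicate 3 and silenced replicate 4 together gave 31 (10 H2b, 7 H3, 9 H4, all probes 17.8%), 4 higher listed genes and an excess of 0.673. The replicate block gave 12 (1 H3, all probes 3.57%) and 13 lower listed genes. Samples of the same number correlated in their deviations at -0.04, 0.19, 0.22 and 0.06, so the numbers were not taken as pairs, and not every sample correlated best with its own number. Leaving out 1 array at a time gave 9 to 26 higher and 0 to 1 lower histone probes (2 to 3 H1, 2 to 8 H2b, 1 to 6 H3, 2 to 7 H4, all probes 2.35% to 12.04%), 0 to 3 higher and 10 to 22 lower listed genes, and an excess of 0.684 to 0.881. No change of the 16 called histone probes turned sign in any of these fits, while 14 of the 41 not called did in at least 1. The 16 were chosen on these same arrays for changes large against their error, so keeping their sign adds no separate support. Among the genes chosen by the naming rule, Hist1h3d, Casp8ap2, H2afz, H3f3a and H3f3b turned sign, none of them called as reported, and Hist1h3d and H2afz were called higher under the shift (adjusted p 0.0263 and 0.043). Hist1h3d came to 0.469, 0.078, 0.061, 0.054 and 0.091 under the shift, loess, normexp, the series table and no masking, and Casp8ap2 to 0.209, 0.205, 0.118, 0.182 and 0.179. H2afz and H3f3b came to 0.372 and 0.326 under the shift. Leave-one-out values ran from -0.53 to 0.102 for Casp8ap2, from -0.226 to 0.256 for H3f3a and from -0.192 to 0.069 for Hist1h3d, and H3f3a was -0.078 without both arrays. The change of Pvt1 stayed between -3.12 and -1.99 and was called in all settings that gave it a value. The cause of these shifts was not tested. Signal over background limits what can be said of 16 of the 68 histone probes, which were well above background on no array.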
